A study of Mus musculus with 15 samples.

Results

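A stretch of 1.5 Mb on chromosome 10 holds 493 of the 823355 HindIII sites counted in the series, running between the sites at 106501211 and 107998616 bp (mm9). Its members are all HindIII sites inside it. The stretch was chosen by its many reads with the Ifng bait in 3T3-L1 against B cells. Its level with that bait and the difference between the cell lines there are therefore described and not tested. Its flanks hold 537 sites on the low-coordinate side, outward to 105005564 bp, and 675 sites on the high-coordinate side, outward to 109999331 bp. The study read contacts of 3 baits by 4C-seq, with 27 libraries in all. A B lymphocyte cell line, which the labels do not name, had 1 library per bait. The mouse fibroblast line 3T3-L1 had 2 libraries per bait at each of days 0, 1, 2 and 6 of adipocyte differentiation. Day 0 cells were confluent and not yet induced, and the later days followed dexamethasone, 3-isobutyl-1-methylxanthine and insulin in fetal serum, with insulin alone from day 2. No group was mutant or carried a transgene. The Ifng bait site lay at 117870359 bp of chromosome 10, the Lpin1 bait on chromosome 12 and the Pparg bait on chromosome 6.

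4C-seq counts the ligations between a bait and other restriction sites in fixed chromatin. On the bait's own chromosome the counts fall with distance along the DNA, because a polymer brings near points together more often than far ones. A segment present in extra copies offers more ends to every bait, so in the simplest case all baits read it higher by the same factor. A segment that has been joined to DNA beside a bait is read by that bait as near, with a step in the counts at each point where the segment begins or ends, and other baits read it much as they read its new surroundings. Established lines such as 3T3-L1 often carry rearranged and unevenly copied chromosomes.

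Libraries held 116031 to 3002206 reads, of which 42094 to 2536087 lay more than 10 kb from the bait. With the Ifng bait the stretch received 6160 reads in the B cell library and 15542 to 128129 in the 3T3-L1 libraries. With Lpin1 it received 147 reads in the B cell library and 699 to 3565 in 3T3-L1. With Pparg it received 15 reads in the B cell library and 22 to 1240 in 3T3-L1. The Ifng library of B cells is compared below with those of 3T3-L1 for its reads in the stretch. It formed a group of its own in the edgeR fit of the Ifng bait, and no Ifng contrast given here uses that group.

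The Ifng bait read a block with abrupt ends inside the stretch. A fit of 3 levels to log10(reads + 1) per site over the stretch and both flanks placed the low edge between the sites at 106631576 and 106633219 bp. It placed the high edge between the sites at 107825006 and 107835061 bp. The 2 edges fell between the same sites in the B cell library and in 8 of 8 3T3-L1 libraries, so the SD over the 3T3-L1 libraries was 0 bp. The block spans 1191.8 kb and 395 sites, and it is smaller than the stretch, whose other 98 sites lie outside it. The block lies 10.05 to 11.24 Mb from the bait.

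At the low edge the change took place over 1643 bp. The last site outside had 0 reads in the B cell library and 0 to 10 reads in the 3T3-L1 libraries, with a median of 5.5. The first site inside had 37 reads in B cells. In 3T3-L1 it had a median of 680.0 and a highest count of 854, with no library under 100. No 3T3-L1 library inside the edge overlapped any library outside it. At the high edge the last site inside had 19 reads in B cells and 85 to 590 in 3T3-L1, with a median of 235.5. The first site outside, 10055 bp farther on, had 0 reads in B cells and 0 in every 3T3-L1 library. It had no 3T3-L1 read with Lpin1 or Pparg either, so its 0 alone does not place the edge. The next site, at 107835450 bp, had 18 Lpin1 reads over the 3T3-L1 libraries and 0 with Ifng. Over 100 kb on each side of the low edge, reads per site inside were 22.7 times those outside in B cells and 62.5 to 285.0 times in 3T3-L1. At the high edge they were 7.05 times in B cells and 20.9 to 218.0 times in 3T3-L1.

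These were the steepest steps of the chromosome as 3T3-L1 showed it. Among 2482 steps between adjoining 50 kb windows over 1 Mb from the bait, after 0.5 was added to reads per site, the step into the window at 106.6 Mb ranked 1 at 6.06 on the log2 scale. The step out of the window at 107.8 Mb ranked 2 at -5.47. The step that ranked 3, at 85.15 Mb, was -2.44. In the B cell library the step in was 3.39 and ranked 3, and the step out was -1.93 and ranked 62.

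**Figure D1:**
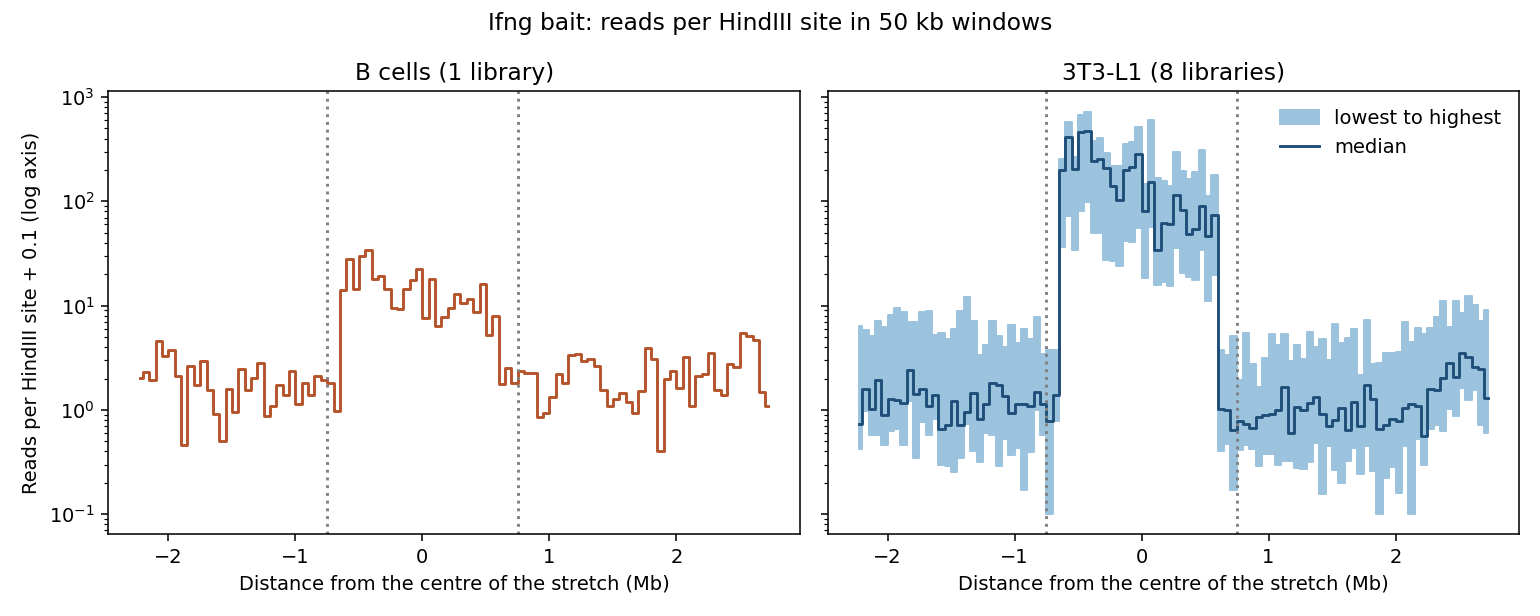
Reads per HindIII site with the Ifng bait in 50 kb windows, plotted after adding 0.1 on a log axis against the distance from the centre of the stretch, with dotted lines at its ends. The B cell library is a line on the left, and the median and the range of the 8 3T3-L1 libraries are on the right. Both cell lines show a block with the same ends, at 15.2 reads per site in B cells and 39.1 to 324.0 in 3T3-L1.

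Over the whole stretch, reads per site with the Ifng bait were 6.27 times those of the flanks in the B cell library (95% Wilson interval 5.98 to 6.57, counting error only). In 3T3-L1 they were 40.6 to 128.0 times those of the flanks, with a median of 70.3. The stretch took 3.81% of the chromosome 10 reads in B cells, against 20.8% to 30.7% in 3T3-L1. The flanks took 1.49% in B cells and 0.588% to 1.27% in 3T3-L1. Reads within 1 Mb of the bait took 59.4% in B cells and 49.1% to 52.3% in 3T3-L1. The B cell library gave the stretch a smaller share than any 3T3-L1 library did, a difference by which the stretch was chosen.

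The block was high for its distance. A line of log10 reads per site on log10 distance, fitted from 2 to 30 Mb without the stretch and 0.5 Mb on each side of it, had slopes of -0.51 in B cells and -0.88 to -0.66 in 3T3-L1. The block held 6.88 times the reads per site of this line in B cells, and 67.3 to 225.0 times in 3T3-L1, with a median of 112.0. A segment of equal length and distance on the other side of the bait, with 349 sites, gave another measure. The block had 5.39 times its reads per site in B cells and 54.6 to 209.0 times in 3T3-L1. On the high-coordinate side of the bait, reads per site first fell below the block's level in the 100 kb bin that began 1.31 Mb away in B cells. In each of the 8 3T3-L1 libraries that bin began 0.21 Mb away. The block was thus read in 3T3-L1 about as often as DNA well within 1 Mb of the bait.

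Inside the block the reads were spread over nearly all sites. At least 1 read was found at 81.0% of the 395 sites in B cells and at 81.8% to 90.6% in 3T3-L1. In all 8 3T3-L1 libraries together, 310 sites had reads in every library and 33 had none in any. The top 63 sites held 0.5 of the block's reads in B cells, and the top 50 to 66 sites did so in 3T3-L1. The 10 sites with most reads held 12.4% in B cells and 11.6% to 15.9% in 3T3-L1, and the first site alone held 1.88% and 1.77% to 2.6%. No single ligation product carried the block.

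The 5 sites with most reads over the 3T3-L1 libraries lay between 106634121 and 106760776 bp, within the low end of the block. The first of them, at 106646292 bp, had 113 reads in B cells and 358 to 2257 in 3T3-L1, with a median of 1736.0. The site at 106660557 bp had 67 reads in B cells and 214 to 2003 in 3T3-L1. The sites at 106634121, 106671496 and 106760771 bp had 72, 68 and 73 reads in B cells and medians of 1132.5, 1090.0 and 1213.0 in 3T3-L1. Each of the 5 was among the 10 highest sites of the block in 8 of 8 3T3-L1 libraries.

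The density fell across the block toward the bait, against the direction in which distance along the reference would order it. Of 3 parts of equal length, the low part had 23.1 reads per site in B cells, the middle part 12.4 and the high part 10.8. The low part had 2.14 times the reads per site of the high part in B cells and 2.27 to 4.74 times in 3T3-L1. Libraries with replicate number 2 had the steeper fall, 3.47 to 4.74 times, against 2.27 to 2.95 times with replicate number 1, and these ranges do not overlap. By 50 kb window, the highest in 3T3-L1 began at 106.8 Mb with 413.0 ± 258.0 reads per site, at 106.75 Mb with 379.0 ± 232.0 and at 106.65 Mb with 340.0 ± 211.0 (SD, n = 8 for each). The same windows had 33.8, 30.1 and 27.9 reads per site in B cells. The window at 106.8 Mb had 725.0 and 470.0 reads per site at day 0, 99.8 and 473.0 at day 1, 715.0 and 545.0 at day 2, and 99.5 and 179.0 at day 6 (replicate numbers 1 and 2). The lowest windows of the stretch began at 106500001, 107900001 and 107950001 bp, outside the edges, with 1.73, 2.44 and 1.71 reads per site in B cells and means of 1.12, 1.22 and 1.26 in 3T3-L1. Of the windows beside the edges, that at 106.55 Mb had 0.875 reads per site in B cells and 1.87 ± 1.25 in 3T3-L1, and that at 107.85 Mb had 1.69 and 1.38 ± 1.26 (SD, n = 8).

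The B cell library repeated the block of 3T3-L1 at a lower level. Its reads in the 25 windows of the block were 7.81% to 17.3% of the mean 3T3-L1 reads, with a median of 8.97%. In the first 15 windows from the low edge the share stayed between 7.81% and 9.45%, and the highest shares lay at 107.6 Mb (17.3%) and 107.45 Mb (14.2%). In the 70 flank windows the same share ran from 15.2% to 407.0% with a median of 95.8%. In 25 windows beside the bait, 0.05 to 1.3 Mb from it on the low-coordinate side, it ran from 16.6% to 800.0% with a median of 44.4%. Of the 320 block sites with reads in B cells, 1 had no read in any 3T3-L1 library, against 15 of 442 such flank sites. Few block sites could have been of this kind. Only 33 of all 395 block sites had no 3T3-L1 read, against 316 of 1212 flank sites.

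The likeness also holds site by site. Across the 395 sites of the block, log2(reads + 1) in the B cell library had a Pearson correlation of 0.851 to 0.878 with each 3T3-L1 library, and 3T3-L1 libraries had 0.936 to 0.986 with one another. Across the 1212 flank sites the values were 0.336 to 0.418 for B cells with 3T3-L1 and 0.335 to 0.553 within 3T3-L1. Across the 381 sites beside the bait they were 0.908 to 0.926 and 0.959 to 0.99. Sites share fragment lengths, mappability and the bait primer, and in the flanks most counts are near 0, so these values describe the libraries only. Whether the B cell line carries the block in some cells, or whether reads or material of 3T3-L1 entered that library, was not tested.

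**Figure D2:**
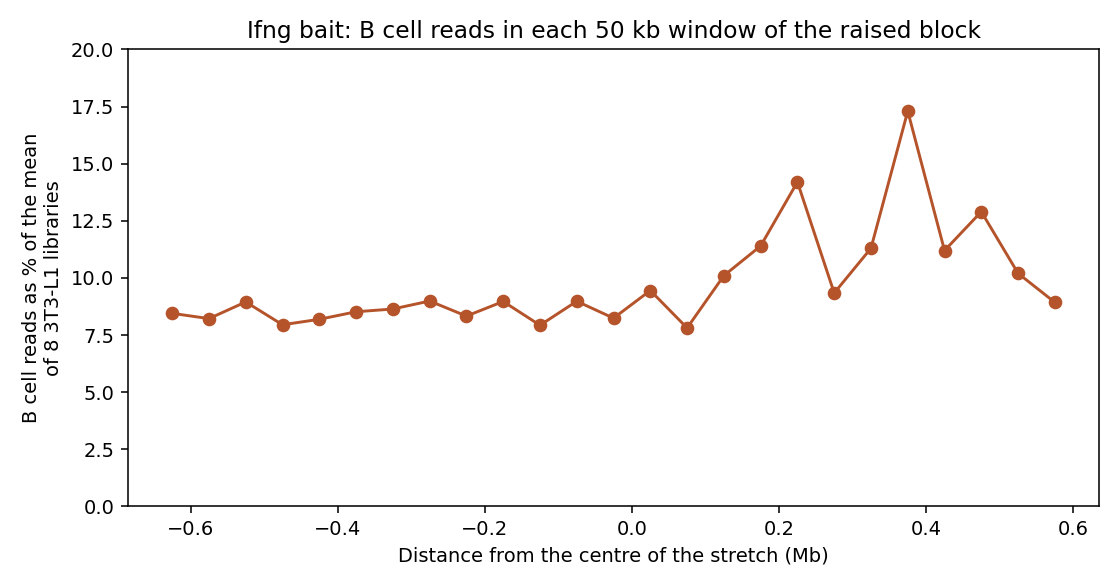
Reads of the Ifng B cell library in each of the 25 windows of the block, as a percentage of the mean over the 8 3T3-L1 libraries, against the distance from the centre of the stretch. The points stay between 7.81% and 9.45% over the first 15 windows and reach 17.3% in the high-coordinate part.

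The baits on other chromosomes also read the stretch above its flanks, at far lower counts. With Lpin1, reads per site in the stretch were 2.36 times those of the flanks in B cells (95% Wilson interval 1.88 to 2.96, counting error only). The interval takes each read as separate, though the 147 stretch reads lay at 21 sites and the 153 flank reads at 16. With the low or the high flank alone, the log2 value of 1.24 was 0.25 or 3.48, outside that interval. In 3T3-L1 the replicates numbered 1 and 2 gave 10.5 and 10.5 times at day 0, 7.82 and 4.28 at day 1, 5.13 and 2.16 at day 2, and 1.94 and 15.9 at day 6. With Pparg the value was 3.07 times in B cells (interval 1.46 to 6.45), from 15 reads in the stretch. In 3T3-L1 it was 2.96 and 67.8 times at day 0, 20.2 and 11.3 at day 1, 3.11 and 6.62 at day 2, and 13.3 and 6.01 at day 6. Each library lay above 1. The value of 67.8 rests on 7 flank reads.

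A ligation seen once can be copied many times by PCR, and reads were few here, so the share of sites with at least 1 read, called captured sites, was also counted. With Lpin1, 4.26% of the stretch sites and 1.32% of the flank sites were captured in B cells, against 6.36% ± 3.96 and 1.04% ± 0.582 in 3T3-L1 (SD, n = 8). With Pparg, 2.03% and 0.495% were captured in B cells, against 5.98% ± 3.07 and 1.22% ± 1.24 in 3T3-L1 (SD, n = 8). The captured share of the stretch was 3.23 times that of the flanks in B cells and 4.15 to 17.2 times in 3T3-L1 with Lpin1. It was 4.1 times in B cells and 2.91 to 24.6 times in 3T3-L1 with Pparg. With Ifng, where most block sites were already captured, it was 1.96 times in B cells and 1.39 to 2.9 times in 3T3-L1, so captured sites cannot show the size of the difference for that bait.

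Lpin1 and Pparg captured the same small piece near the low edge most often. Fits of 3 levels to their 3T3-L1 means started at the same site for both baits, 106651551 bp, and ended at 106674930 bp for Lpin1 and at 106677723 bp for Pparg. The piece of 26.2 kb that Pparg gave holds 14 sites. Lpin1 captured 28.6% of them in B cells, with 7 reads in all, against 48.2% ± 22.8 in 3T3-L1 (SD, n = 8) with 3461 reads in all. Pparg captured 0 of 14 in B cells, which allows a share of up to 21.4%, and 36.6% ± 27.6 in 3T3-L1 (SD, n = 8). In the other 381 block sites the 3T3-L1 means were 6.01% ± 4.34 for Lpin1 and 6.13% ± 3.14 for Pparg. By captured sites the piece was above the rest of the block in 8 of 8 Lpin1 and 7 of 8 Pparg 3T3-L1 libraries. By reads per site it was above the rest in 8 of 8 Lpin1 and 5 of 8 Pparg libraries. The Pparg libraries below were those of days 1, 2 and 6 with replicate number 2. Pparg captured 7 to 10 of the 14 sites in the 3T3-L1 libraries numbered 1 and 0 to 4 in those numbered 2, without overlap. Lpin1 captured 6 to 11 and 1 to 6 of them. With the Ifng bait the piece had 2.26 times the reads per site of the rest of the block in B cells. In 3T3-L1 it had 2.15 to 2.98 times, in 8 of 8 libraries. It lies in the dense low part of the block, and its mean of 400.0 was below the 413.0 of the window at 106.8 Mb. By captured sites Ifng had 78.6% in the piece and 81.1% in the rest in B cells. In 3T3-L1 the means were 84.8% and 86.7%, with the piece above the rest in 2 of 8 libraries. The piece was located with the Lpin1 and Pparg reads, so their values are a description.

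The Ifng edges were not located from the other baits. Their 3T3-L1 means gave the piece, and their B cell fits gave 107612863 to 107627286 bp for Lpin1 and 107670988 to 107677705 bp for Pparg. Over the 100 kb inside and outside the low edge, Lpin1 captured 23.1% and 1.01% of site counts summed over the 3T3-L1 libraries, and Pparg captured 18.9% and 0.676%. The piece held 54 of the 61 Lpin1 captures inside and 41 of the 50 Pparg captures, and the other 19 sites were captured at 4.61% and 5.92%. Across the high edge the values inside and outside were 8.17% and 3.79% for Lpin1, with 11 of the 17 captures inside from the day 0 libraries, and 6.73% and 1.52% for Pparg. Reads per site inside were 0 to 13.1 times those outside in the 5 Lpin1 libraries of 3T3-L1 with reads outside (median 1.45), and 0 to 15.2 times in 4 such Pparg libraries (median 0.634). Another 1 Lpin1 and 3 Pparg libraries had reads inside only. The high edge was thus not regular over these libraries. In B cells Lpin1 captured 1 of 26 sites inside the high edge and 2 of 33 outside. In the B cell libraries the 33 sites inside the low edge held 4 captured sites with Lpin1 and 0 with Pparg, which allows a share of up to 9.09%.

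**Figure D3:**
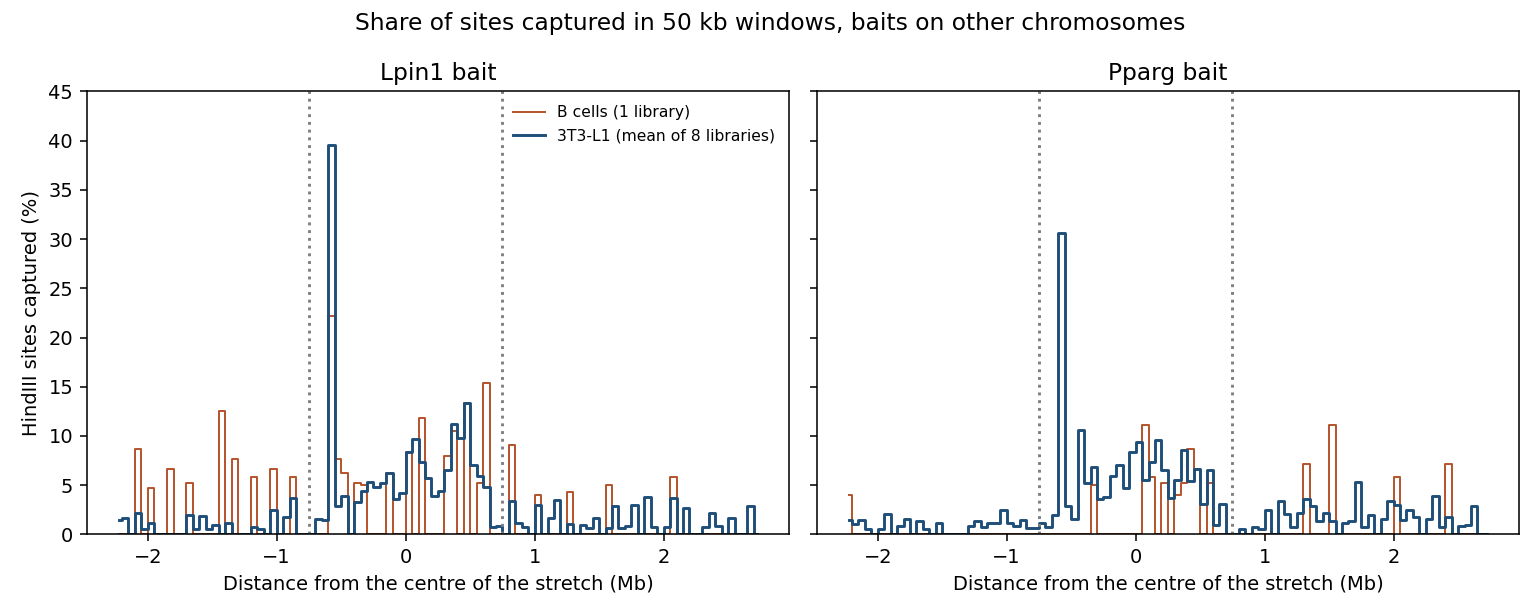
Percentage of HindIII sites captured in 50 kb windows with the Lpin1 bait (left) and the Pparg bait (right), against the distance from the centre of the stretch, for the B cell library and for the mean of 8 3T3-L1 libraries. In 3T3-L1 the window at 106.65 Mb reaches 39.6% with Lpin1 and 30.6% with Pparg, and the block outside the 26.2 kb piece averages 6.01% and 6.13%, against 1.04% and 1.22% in the flanks.

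The geometric mean of the stretch over its flanks in 3T3-L1 was 74.0 times with Ifng, 5.79 times with Lpin1 and 9.65 times with Pparg. Each Ifng library of 3T3-L1 lay above all 8 Lpin1 libraries and above 7 of 8 Pparg libraries. The factor of Ifng was 12.8 times that of Lpin1 and 7.67 times that of Pparg. By day, Ifng over Lpin1 was 7.7, 13.4, 24.1 and 10.8 at days 0, 1, 2 and 6, and Ifng over Pparg was 5.71, 5.13, 17.7 and 6.69. In B cells Ifng over Lpin1 was 2.66 and Ifng over Pparg was 2.04. The Ifng factor in 3T3-L1 against B cells chose the stretch, so it is given without a test. The B cell factor was 0.0847 of that of 3T3-L1 with Ifng, 0.408 with Lpin1 and 0.318 with Pparg.

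Lpin1 and Pparg, which did not choose the stretch, had factors that differed by less than the spread between libraries. The mean log2 factor was 2.53 ± 1.10 with Lpin1 and 3.27 ± 1.495 with Pparg in 3T3-L1 (SD, n = 8 each). Without the 26.2 kb piece, which was left out after the data were seen, the means were 1.80 and 2.94. The difference of -0.74 over the whole stretch had p = 0.285 in a two-sided exact permutation test, and 0.997 after Benjamini-Hochberg adjustment over the 7 ratio comparisons made. Within replicate number 1 it was -0.40 (exact permutation p = 0.657) and within number 2 it was -1.07 (exact permutation p = 0.371). These p-values measure the spread between libraries, since the labels do not say that replicates came from separate cultures.

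For a joined segment, the matching comparison is with the surroundings of the bait. Each captured share was divided by the library's share over every chromosome except the bait's own. With Lpin1 the block reached 1.46 times that level in B cells, and the region beside Ifng (the same 381 sites) reached 5.19 times. In 3T3-L1 the block reached 4.69 ± 1.77 times and the region beside Ifng 14.0 ± 4.36 times (SD, n = 8). These multiples also differ with the captured share of the library, which was 3.29% in the Lpin1 B cell library. The 3T3-L1 library nearest to it, day 2 replicate 1 with 3.79%, had 2.34 times in the block and 7.47 times beside Ifng. With Pparg the block reached 2.61 times in B cells and the region beside Ifng 4.34 times. In 3T3-L1 these were 4.55 ± 1.78 and 11.6 ± 3.86 times (SD, n = 8). The Pparg B cell library had a captured share of 0.968%. The 3T3-L1 library nearest to it, day 2 replicate 2 with 0.852%, had 6.83 and 13.6 times. The flanks lay at 0.402 times with Lpin1 and 0.511 times with Pparg in B cells, and at 0.606 ± 0.222 and 0.617 ± 0.252 times in 3T3-L1 (SD, n = 8). For both baits the block's value thus lay above that of its flanks and below that of the region beside Ifng, in each cell line. Extra copies, a joined segment and both together were not tested against one another, because neither copy number nor junction reads are among the values used here.

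**Figure D4:**
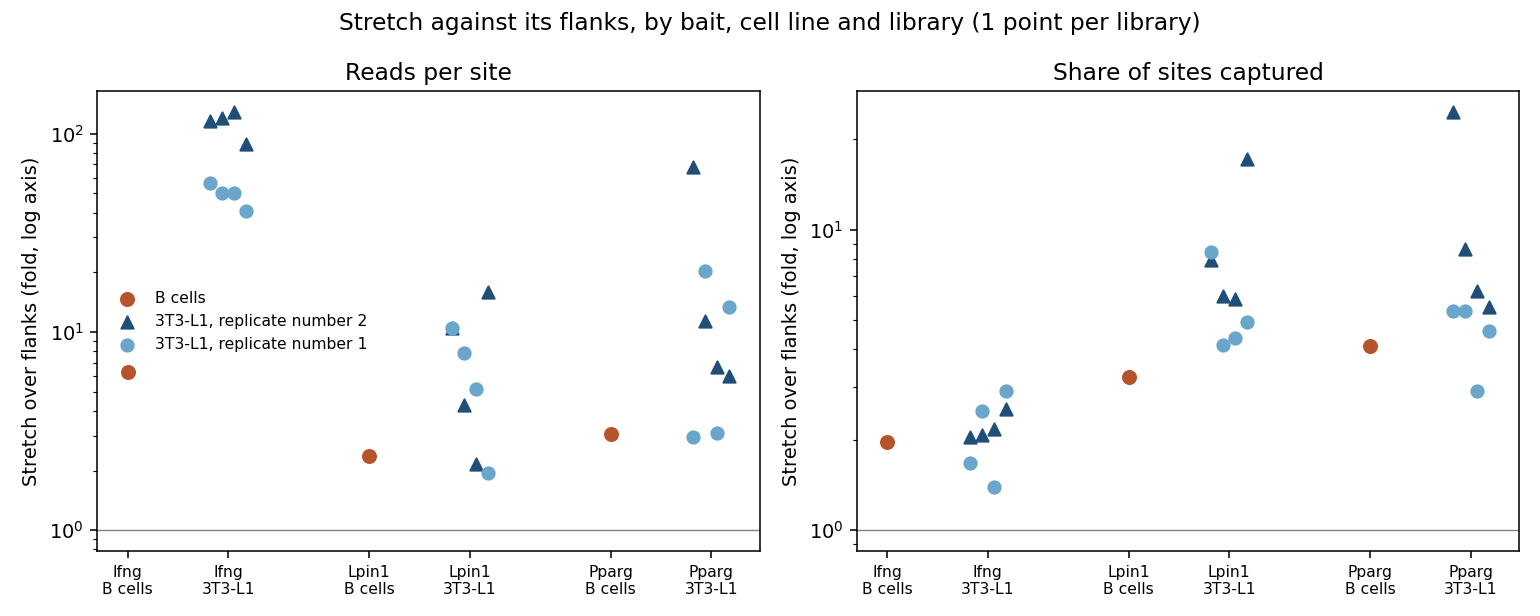
Stretch over flanks for reads per site (left) and for the share of captured sites (right), 1 point per library on log axes, with B cells left of 3T3-L1 for each bait. With Ifng the triangles of replicate number 2 (88.2 to 128.0 times) lie above the circles of replicate number 1 (40.6 to 56.1 times), and with Lpin1 and Pparg they overlap. For captured sites the Pparg triangles (5.53 to 24.6 times) lie above the circles (2.91 to 5.38 times), and those of Ifng and Lpin1 overlap.

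The block was present at every day of differentiation. With Ifng the replicates numbered 1 and 2 gave 56.1 and 116.0 times the flanks at day 0, 50 and 120.0 at day 1, 50 and 128.0 at day 2, and 40.6 and 88.2 at day 6. Pooled over the replicate numbers, the day 6 values overlap those of day 0. Within each number, with 1 library per day, day 6 had the lowest value. Day 6 minus day 0 was -0.43 with Ifng, -0.92 with Lpin1 and -0.66 with Pparg on the log2 scale. The exact permutation p was 0.667, 1.0 and 1.0, and the smallest p that 2 against 2 libraries allow is 0.333.

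Window by window, no 50 kb window of the stretch passed in the edgeR quasi-likelihood test with the Ifng bait. That fit left out the replicate number, so the split of the Ifng factor by number, given below, counted as spread between libraries. With that number as a block, 6 of the 30 windows passed at day 6, among 12 of 1897. Without the block, none of the 30 windows passed at day 1, 2 or 6 against day 0. Percent called over the 1897 windows of the chromosome was then 0 in each. At an unadjusted p under 0.05 the counts were also 0 of 30, against 114, 72 and 117 of 1897 windows, and DESeq2 called 0. The median log2 difference over the 30 windows was -0.11, 0.09 and -0.56 at days 1, 2 and 6, against -0.09, 0.01 and -0.18 over all windows tested. The windows with the smallest p began at 107.95 Mb for day 1 (log2 1.46, edgeR adjusted p = 0.905), at 106.55 Mb for day 2 (0.70, edgeR adjusted p = 0.999) and at 106.7 Mb for day 6 (-0.98, edgeR adjusted p = 0.810).

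The captured sites of the other baits gave no passing window in the fit without a block either. For Pparg, 0 of the 3 windows of 500 kb passed in edgeR at days 1, 2 or 6 or in B cells against 3T3-L1, with percent called 0 of 1969 windows in each contrast. No window of the 3 had an unadjusted p under 0.05, and DESeq2 called 0. For Lpin1, 0 of 3 passed at each day, with percent called 0 of 2250 windows, although 2, 2 and 1 of them had an unadjusted p under 0.05 at days 1, 2 and 6, against 113, 116 and 158 of all 2250. All 3 were lower in sign at each day, and the window from 107.0 Mb had log2 differences of -1.04, -1.58 and -2.28 (edgeR adjusted p = 0.900, 0.209 and 0.551). In B cells against 3T3-L1, 0 of 3 Lpin1 windows passed, with percent called 0.222, and DESeq2 called 0. All 3 had an unadjusted p under 0.05, as had 255 of 2250 windows (11.3%), with 1 library as the B cell arm. They had log2 differences of -1.28, -1.51 and -1.12 and edgeR adjusted p of 0.207, 0.345 and 0.281. As 1 window of 1.5 Mb the stretch passed, at -1.42 (edgeR adjusted p = 0.0245), among 40 of 1514 windows that passed.

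The replicate number moved with the Ifng factor. Libraries numbered 2 had 88.2 to 128.0 times the flanks and those numbered 1 had 40.6 to 56.1 times, without overlap. The difference was 1.20 on the log2 scale, with the exact permutation p at its smallest, 0.0286, and 0.2 after adjustment over 7 comparisons. It was 0.23 with Lpin1 (exact permutation p = 0.8) and 0.91 with Pparg (exact permutation p = 0.429). With captured sites it was 0.12 with Ifng, 0.67 with Lpin1 and 1.06 with Pparg. The exact permutation p was then 0.933, 0.6 and 0.2 after adjustment over 7 comparisons. For reads, the difference of this effect between baits gave exact permutation p of 0.292 for Ifng minus Lpin1 and 0.822 for Ifng minus Pparg. The stretch took 26.3% to 30.7% of the chromosome 10 reads in the libraries numbered 2, against 20.8% to 23.0% in those numbered 1. The flanks took 0.588% to 0.734% and 1.01% to 1.27%. What the replicate numbers stand for is not given in the sources used here.

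The files carry no gene names, and the gene table at hand is of GRCm38.p6, so no gene is placed in the stretch. In that table the protein-coding genes of chromosome 10 on the low-coordinate side of Ifng run outward through Il22, Rap1b, Mdm2, Cpm, Cnot2, Kcnmb4, Lgr5, Tph2, Kcnc2, Phlda1, Nap1l1, E2f7, Nav3, Syt1, Pawr, Ppp1r12a, Otogl, Ptprq, Myf6, Myf5, Lin7a, Acss3 and Ppfia2, with others between them. Mdm2 encodes the ubiquitin ligase of p53, and Myf5 and Myf6 encode muscle transcription factors. Only their order is given.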

How the data were processed

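The authors deposited counts of reads at each HindIII site, 1 file per library, with no scaling. Bowtie, with no version given, and the build mm9 are named per the submitters' processing notes. Read filters and removal of PCR duplicates are not given in the sources used here. The members, windows and lists were chosen with earlier results of these data known. Sites within 10 kb of a bait were left out of every total except the full read count of each library.

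Ratios are reads per site of the stretch over reads per site of both flanks, compared on the log2 scale by two-sided exact permutation tests (SciPy 1.17.1). For windows, a robust quasi-likelihood test of edgeR 4.0.16 (R 4.3.3) was used with TMM scaling, 5 groups per bait and a threshold of 0.05. It ran on reads in 50 kb windows for Ifng after filterByExpr and on captured sites in 500 kb windows for Lpin1 and Pparg with a mean of at least 3. The 1 B cell library per bait was assumed to vary like 3T3-L1. The edgeR scripts were tested on simulated data. Windows named are those beside the edges, the 3 highest and 3 lowest, and those with the smallest p. The 5 highest sites are named too. Alternatives were DESeq2 1.42.0, no filter, other window sizes, a replicate block, captured or capped reads, single flanks, other edge and distance fits, and leaving out each library. After the data were seen, the stretch was also read without the piece that Pparg captured most. Over all windows tested, deviations from the day means correlated at -0.01 to 0.071 between same-numbered Ifng libraries of different days. These values were 0.002 to 0.326 for Lpin1 and 0.099 to 0.152 for Pparg. With 2 libraries per day, pairs of unlike number have the same values with the sign reversed. The main fit did not take the numbers to pair libraries, though the Ifng factor of the stretch split by number. Wilson intervals are at 95% and cover counting error only. No mm9 sequence or annotation was at hand, so none is used here.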

Additional observations from a re-analysis of the deposited data

Results flagged for a closer look

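In sets of 8 libraries, the value farthest from the rest was compared with its nearest neighbour by Dixon's test, which marks about 1 in 20 sets by chance, and 18 sets were examined. The Lpin1 library of day 6 replicate 2 had 130.0 reads per captured site of the stretch and a captured share 17.2 times that of its flanks, from 7 captured stretch sites and 1 captured flank site. The Pparg library of day 0 replicate 2 had a captured share 24.6 times that of its flanks, from 30 and 3 captured sites. The Pparg library of day 2 replicate 1 had 4.04% of its flank sites captured. The Ifng library of day 6 replicate 1 captured 11 of the 14 sites of the piece near the low edge (78.6%). Each of the other 3T3-L1 libraries captured 12 (85.7%). Since those values were all equal, the test marks any difference from them, and here it was 1 site.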

How the results depend on the processing

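The factor of the stretch over its flanks stayed above 1 for each bait and cell line under every alternative run. For Ifng in 3T3-L1 the mean log2 factor of 6.21 was 1.08 with captured sites, 1.74 with sites of at least 2 reads and 4.91 with capped reads. For Ifng in B cells the value of 2.65 was 0.97 with captured sites, 1.24 with at least 2 reads, 2.76 and 2.56 with the low or the high flank alone, 2.93 within the located edges and 2.58 without the piece captured most by Pparg. For Lpin1 in B cells the value of 1.24 was 1.69 and 1.59 with captured sites of at least 1 or 2 reads, and 0.25 and 3.48 with the low or the high flank alone. For Pparg in B cells the value of 1.62 was 4.03 with the low flank alone, which held 1 read. The low flank had no read in Lpin1 day 6 replicate 2 and in Pparg day 0 and day 2 replicate 2, and these libraries drop out of that alternative. Without the piece captured most by Pparg the Lpin1 mean in 3T3-L1 of 2.53 was 1.80. With captured sites the low edge lay at 106630624 bp, and the high edge did not move under any alternative run. The distance expectation for B cells, 2.78 on the log2 scale, was 3.00 over 2 to 20 Mb and 2.87 from the low side only.

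Differences between groups that did not pass changed sign as follows. Lpin1 minus Pparg became 0.045 with captured sites. Day 6 minus day 0 became 0.55, 0.96 and 0.59 for Ifng with captured sites, at least 2 reads and capped reads, 0.17 for Lpin1 with captured sites and 1.47 for Pparg with the low flank alone. Replicate number 2 minus 1 for Lpin1 became -0.50 and -0.024 with the low or the high flank alone. Leaving out 1 library gave day 6 minus day 0 ranges of -0.99 to 0.13 for Ifng, -2.43 to 0.60 for Lpin1 and -2.92 to 1.60 for Pparg, and -0.26 to 0.74 for replicate numbers with Lpin1. The cause was not tested.

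With the replicate number as a block, 6 of 30 Ifng windows of the stretch passed at day 6 against day 0, among 12 of 1897 windows, and it changed no other call in the stretch. The labels do not tie the numbers to a shared culture. For Lpin1, 1 window of 1.5 Mb passed in B cells against 3T3-L1, among 40 of 1514 windows, and leaving out 1 library gave 0 to 1 window at day 2, the 1 without day 0 replicate 1.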
